A study of Mus musculus with 24 samples.

Results

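Mature microRNAs (miRNAs) were measured by small RNA sequencing in mouse lung at day 90, with 4 libraries from irradiated and 4 from control lungs, 8 of the 24 libraries of the series. The mice were C57BL/6, an inbred laboratory strain, aged 6 to 8 weeks when divided into groups. Irradiated mice received 15 Gy of X-rays to the whole thorax, with the rest of the body kept out of the field, and controls are labelled only as controls. The labels leave unsaid whether each library stands for an animal of its own, and p-values therefore measure only the spread among these libraries, which may be technical. All annotated mouse miRNAs with enough counts were taken, which left 519 of the 1294 annotated rows of the day 90 table. Whole-lung tissue holds many cell types, so fewer cells of a type and less RNA per cell cannot be told apart in any value below.

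A mature miRNA is a short RNA cut from a hairpin, and it represses messenger RNAs whose sites pair with its seed, the bases from position 2 to 8. Each hairpin can give a miRNA from its 5′ arm (5p) and one from its 3′ arm (3p), usually with one arm far more abundant. Many miRNAs are made mainly in one cell type, such as miR-122 in hepatocytes, the miR-1 and miR-133 families in striated muscle and miR-150 in lymphocytes. Whole-thorax irradiation of mice is a model of radiation-induced lung injury, in which inflammation is followed over weeks to months by fibrosis. The study's title names miR-208a-3p, a miRNA of heart muscle.

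Mature sequences below are from RefSeq for GRCm38.p6 and are written 5′ to 3′ with the seed in capitals. Of the 519 miRNAs, 427 had one there. The first set shows miRNAs of striated muscle that stood higher in irradiated lungs, among them one of the 2 that passed the test.
miR-133b-3p: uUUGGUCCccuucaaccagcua
miR-208a-3p: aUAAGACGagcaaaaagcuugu
miR-499-5p: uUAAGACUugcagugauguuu
The seeds of miR-208a-3p and miR-499-5p share their first 6 letters. The second set shows a family with one seed, AUUGCAC, in which miR-32-5p stood on the other side of 0 from its relatives.
miR-32-5p: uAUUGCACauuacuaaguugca
miR-92a-3p: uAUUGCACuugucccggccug
miR-25-3p: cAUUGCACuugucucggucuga
miR-363-3p: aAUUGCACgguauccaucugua
The third set shows 2 pairs with a shared seed, of which the first of each pair separated the groups and the second did not.
miR-34b-5p: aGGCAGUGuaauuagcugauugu
miR-34a-5p: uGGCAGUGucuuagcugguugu
miR-141-3p: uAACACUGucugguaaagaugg
miR-200a-3p: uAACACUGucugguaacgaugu
Of 22 positions compared, miR-141-3p and miR-200a-3p differ at 2, so reads could be split between them, and both values are uncertain. The fourth set shows miRNAs of the imprinted cluster on chromosome 12, which have different seeds.
miR-136-5p: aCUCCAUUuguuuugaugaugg
miR-376a-3p: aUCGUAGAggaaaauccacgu
miR-541-5p: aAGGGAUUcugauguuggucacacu
The fifth set shows a red cell miRNA that was higher and a pair of lymphocyte miRNAs that were lower in every irradiated library.
miR-144-3p: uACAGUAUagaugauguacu
miR-150-3p: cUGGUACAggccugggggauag
miR-342-3p: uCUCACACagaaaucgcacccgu

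Total counts were 3464742 to 3638984 per library, and levels are given in CPM, counts scaled to a common library size. The most abundant row was miR-126a-3p, a miRNA of endothelial cells, in all 8 libraries, with 111657 to 119208 counts, and the 10 most abundant rows took 27.4% to 29.6% of counts. The counts of the most abundant miRNAs spread little: the median coefficient of variation among controls was 8.63% for ranks 1 to 20 by level and 33.4% for ranks 401 to 558. The largest log2 fold change in either direction among ranks 1 to 20 was 0.14. The cause of this narrow range was not tested, and changes of the most abundant miRNAs may be understated. Lung miRNAs were abundant in both groups, with epithelial miR-200c-3p at 9269 to 13092 CPM.

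The comparison asked which miRNAs differ between irradiated and control lung at day 90. edgeR's quasi-likelihood test, with Benjamini-Hochberg adjustment over all 558 rows tested, called 2 miRNAs (0.358% of rows), miR-133b-3p and miR-122-3p, and both rose. At an unadjusted p under 0.05, 46 rows were higher (8.24%) and 25 were lower (4.48%) in irradiated lung. In 27 rows all 4 irradiated libraries lay above all 4 controls (4.84%), and in 13 they lay below (2.33%). Of these, 25 and 13 were annotated miRNAs. The median log2 fold change of all rows was -0.02, and 268 of 558 rows stood above 0. DESeq2 called 18 miRNAs, 14 higher and 4 lower, and without control library 4 edgeR called 7. No miRNA was called without any one of control library 1 or irradiated libraries 1, 2 or 3.

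**Figure D1:**
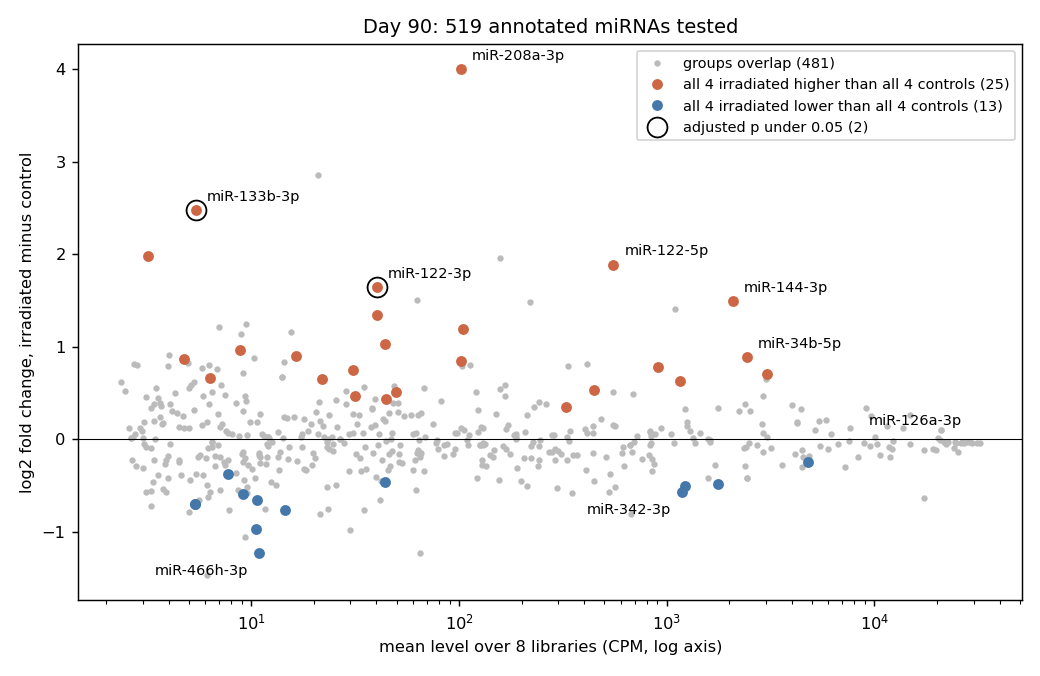
Log2 fold change (irradiated minus control) against mean level in CPM (log axis) for the 519 annotated miRNAs tested at day 90. The 25 coloured points above 0 and the 13 below are miRNAs whose groups do not overlap, the 2 ringed points passed the test, and the most abundant miRNAs at the right lie close to 0.

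miR-133b-3p belongs to a family that acts in the growth and differentiation of striated muscle. Its level in CPM was 1.74, 0.59, 2.40 and 1.80 in control libraries 1 to 4 and 11.4, 7.21, 8.62 and 9.73 in irradiated libraries 1 to 4. Every irradiated library lay above every control. It rose 5.56-fold (log2 fold change 2.48 ± 0.36 SE, edgeR adjusted p = 0.0221, n = 4 each), the counts being 2 to 8 in controls and 25 to 40 in irradiated libraries. Values with ± below are log2 fold changes (irradiated minus control) with their SE, from 4 libraries a group, unless said otherwise. Its hairpin (GRCm38.p6, plus strand of chromosome 1, 20682769 to 20682887) overlaps an exon of Gm28653, a long non-coding RNA gene. miR-133b-3p is nearly identical to the more abundant miR-133a-3p, so the counting could split reads between them, and its value is uncertain.

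The other miRNAs of striated muscle stood higher too, without passing the test. miR-208a-3p, whose hairpin (minus strand of chromosome 14, 54949060 to 54949142) sits within an intron of Myh6, a myosin gene of the heart, had 0.29, 35.5, 12.3 and 0 in controls against 116.0, 408.9, 49.96 and 192.05 CPM in irradiated lungs. All irradiated libraries lay above all controls, and both groups spread widely. The log2 fold change was 4.00 ± 1.21 (edgeR adjusted p = 0.216). The exact two-sided permutation p, unadjusted, was 0.0286, the smallest that 4 against 4 libraries can give. Groups of this size that do not overlap always give this value, so it adds nothing to the lack of overlap. The means were 12.0 ± 16.6 in controls against 191.7 ± 156.0 CPM in irradiated lungs (SD, n = 4 each). With this spread, and 1 control without a count, the size of the fold is uncertain. miR-499-5p, from an intron of another myosin gene, Myh7b (chromosome 2, 155622880 to 155622958, plus strand), had 23.2, 39.9, 30.6 and 22.6 in controls against 49.2, 70.7, 48.2 and 69.1 CPM in irradiated lungs. These groups did not overlap, and the log2 difference was 1.03 ± 0.25 (edgeR adjusted p = 0.119).

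Of 10 miRNAs listed for striated muscle 8 were tested, all 8 stood above 0 with a median log2 fold change of 1.44, and 1 passed. In 6 the unadjusted p was under 0.05, and in 3 the groups did not overlap. Over all rows, 8.24% were higher at that p, and in 4.84% all irradiated libraries lay above all controls. Muscle miR-1a-3p, at 254.4, 996.4, 760.7 and 404.8 in controls against 1478, 2905, 665.9 and 1348 CPM in irradiated lungs, overlapped between the groups (1.40 ± 0.50). The same held for miR-133a-3p (1.48 ± 0.41), miR-208a-5p (2.86 ± 1.09), miR-206-3p, which marks skeletal muscle (1.14 ± 0.56), and miR-208b-3p, of the myosin gene Myh7 (0.38 ± 0.34). Control library 2 was the highest control and irradiated library 2 the highest irradiated library for miR-208a-3p, miR-1a-3p and miR-133a-3p. The 8 miRNAs summed to 371.3 to 1316 in controls against 988.2 to 3998 CPM in irradiated lungs, and the amount of muscle in the dissected tissue was not tested.

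miR-122 is the dominant miRNA of hepatocytes. Its 3p arm, miR-122-3p, had 19.1, 12.4, 19.5 and 26.7 in controls against 63.98, 75.6, 55.02 and 48.9 CPM in irradiated lungs. The groups were apart, and the arm rose 3.13-fold (1.64 ± 0.26, edgeR adjusted p = 0.0221). The abundant 5p arm, miR-122-5p, had 158.0, 153.9, 183.5 and 445.9 in controls against 1004, 993.2, 882.4 and 611.5 CPM in irradiated lungs. Here too all irradiated libraries were above all controls, although control library 4 stood far above the other controls, and the test was not passed (1.89 ± 0.36, edgeR adjusted p = 0.076). Without control library 4 the edgeR adjusted p of miR-122-5p was 0.00163 and its log2 fold change was 2.38. Leaving out any other single library gave no call of miR-122-5p. It was called in 7 of 20 alternative fits by edgeR, DESeq2 or limma, with adjusted p from 6.77e-06 to 0.41. A separate row, miR-122b-5p, ranged from 0.29 to 2.31 in controls and from 4.46 to 5.77 CPM in irradiated lungs (log2 1.98 ± 0.43, edgeR adjusted p = 0.102). The hairpin Mir122 (GRCm38, plus strand of chromosome 18, 65248861 to 65248926) overlaps an exon of AC157910.3, a long non-coding RNA gene. The source of liver miRNA in lung libraries was not tested.

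**Figure D2:**
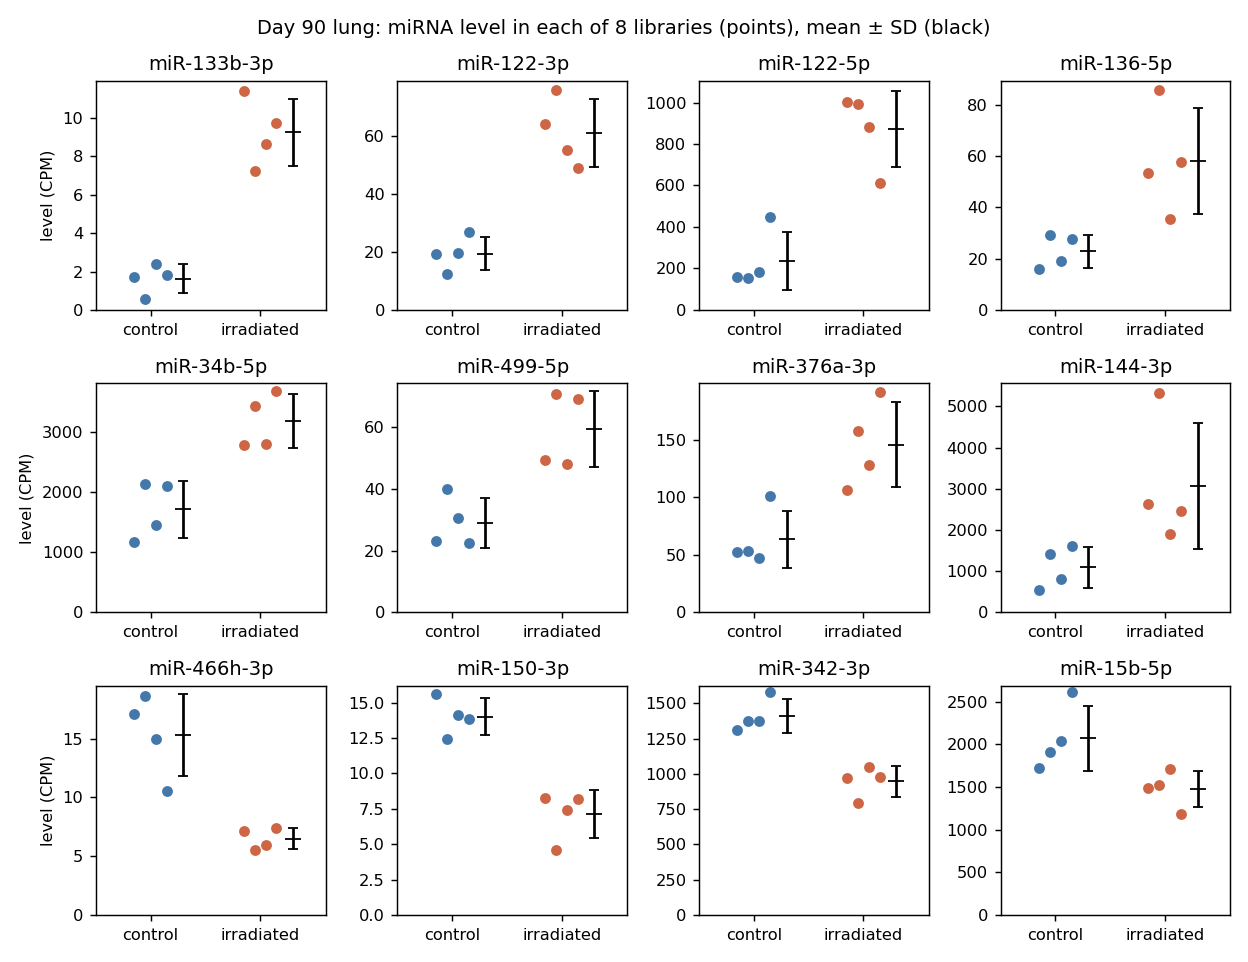
Level in CPM of 12 miRNAs in each of the 8 day 90 libraries (points, control and irradiated, libraries 1 to 4 from left to right) with mean ± SD in black. In every panel the 4 irradiated libraries lie on one side of the 4 controls, as for miR-133b-3p with 7.21 to 11.4 against 0.59 to 2.40 CPM.

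The imprinted cluster on chromosome 12 is a large group of miRNA genes expressed from the maternal allele and most active in embryo, placenta and brain. Of 72 miRNAs listed, 35 were tested, and 34 of 35 stood above 0 with a median log2 fold change of 0.47, where 48% of annotated rows did. None passed, 12 had an unadjusted p under 0.05, all higher, and in 9 the groups did not overlap. Over all rows tested, 8.24% were higher at that p, and 4.84% had all irradiated libraries above all controls. miR-136-5p had 15.9, 29.2, 18.9 and 27.5 in controls against 53.5, 85.7, 35.4 and 57.6 CPM in irradiated lungs. The highest control lay below the lowest irradiated library, and the log2 difference was 1.34 ± 0.30 (edgeR adjusted p = 0.119). miR-376a-3p had 52.4, 53.5, 47.4 and 100.6 in controls against 106.1, 157.6, 128.2 and 191.0 CPM in irradiated lungs (log2 1.20 ± 0.29, edgeR adjusted p = 0.119). The groups were apart, and control library 4, far above the other controls, lay just under the lowest irradiated library.

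Further along the cluster, miR-379-5p, which gives its name to the longest block of hairpins, had 426.0, 385.8, 315.45 and 334.5 in controls against 527.5, 526.0, 527.9 and 538.5 CPM in irradiated lungs (log2 0.54 ± 0.16, edgeR adjusted p = 0.216). The irradiated libraries were nearly equal and all higher than the controls. miR-541-5p had 22.3, 23.3, 21.3 and 24.6 CPM against 32.4, 36.6, 32.7 and 52.2 CPM (0.75 ± 0.21), and miR-154-3p had 5.79, 5.32, 6.30 and 6.42 CPM against 7.68, 14.7, 9.52 and 14.9 CPM (0.97 ± 0.27). The groups were apart in both. In the block from Mir379 to Mir410 (chromosome 12, hairpin starts 109709060 to 109743715, each within 10 kb of the next), 26 of 26 miRNAs tested stood above 0. In the block from Mir337 to Mir136 (hairpin starts 109585789 to 109595327), 7 of 8 did, the exception being miR-434-3p. miR-127-3p, an abundant member of that block, was at 878.3 to 1086 in controls against 912.5 to 1224 CPM in irradiated lungs (log2 0.05 ± 0.15). The 35 miRNAs summed to 2551 to 3116 in controls against 3195 to 3831 CPM in irradiated lungs, without overlap.

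**Figure D3:**
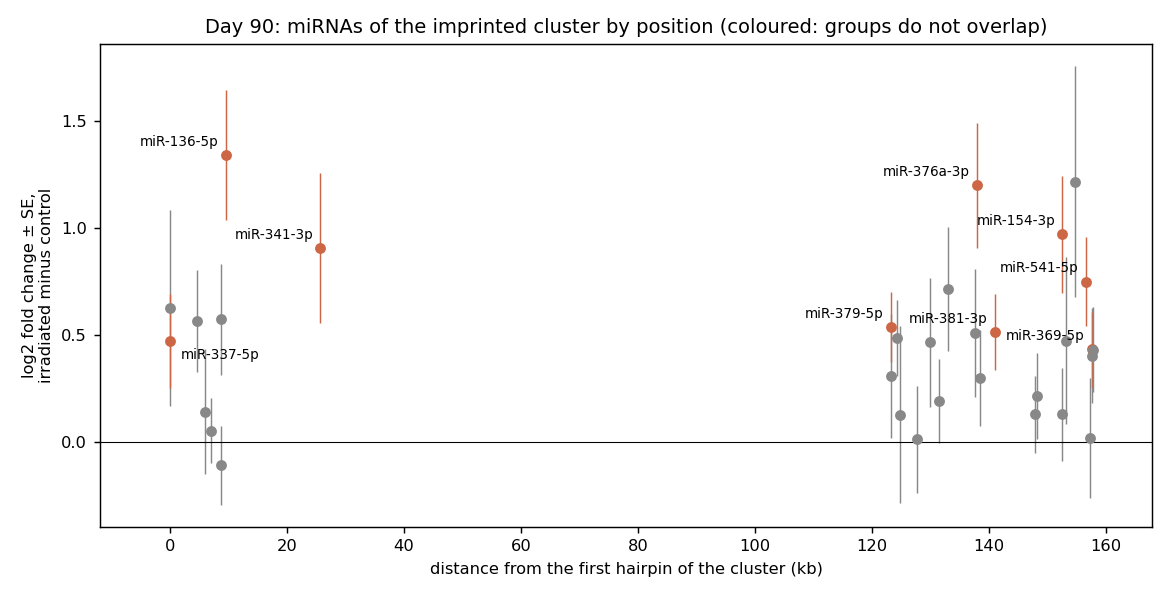
Log2 fold change ± SE at day 90 against distance in kb along the chromosome 12 cluster, for members with a placed hairpin. Coloured points are miRNAs whose groups do not overlap, such as miR-136-5p at 1.34 and miR-376a-3p at 1.20, and 1 of the miRNAs drawn lies below 0.

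The miR-34 and miR-449 families share the seed GGCAGUG. They are known from ciliated epithelium, where they act in the making of cilia, and miR-34a and miR-34b/c are also induced by p53, the transcription factor of the DNA damage response. miR-34b-5p had 1169, 2126, 1452 and 2098 in controls against 2788, 3426, 2801 and 3678 CPM in irradiated lungs. All irradiated libraries lay above the controls (0.89 ± 0.21, edgeR adjusted p = 0.119). The 3p arm of the same hairpin (chromosome 9, 51103562 to 51103645, minus strand), miR-34b-3p, overlapped between the groups at 7047, 4471, 4332 and 4071 in controls against 4791, 5029, 5502 and 5967 CPM in irradiated lungs (log2 0.10 ± 0.18). miR-34c-5p (0.33 ± 0.15) and miR-34a-5p (0.26 ± 0.14) overlapped as well, and the high irradiated value of miR-34a-5p, 21244 CPM in library 4, stood against 14317 to 14699 CPM in the other 3. All 6 ciliated cell miRNAs tested stood above 0, median 0.36, and 1 of the 6 separated the groups. Over all rows, 4.84% had every irradiated library above every control. Of 10 p53-regulated miRNAs tested 6 stood above 0, median 0.18, with miR-215-5p at 0.88 ± 0.32 and miR-194-5p, also a p53 target, at -0.51 ± 0.22. None of either list passed.

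miR-144 and miR-451a come from neighbouring hairpins and are abundant in red cells. miR-144-3p (hairpin on chromosome 11, 78073005 to 78073070, plus strand) had 536.5, 1414, 800.0 and 1616 in controls against 2628, 5317, 1896 and 2455 CPM in irradiated lungs. The groups did not overlap (1.49 ± 0.40, edgeR adjusted p = 0.156). The other arm, miR-144-5p, overlapped (0.42 ± 0.34), and so did miR-451a, at 24763 to 30729 in controls against 25564 to 29886 CPM in irradiated lungs (log2 -0.04 ± 0.09). The ratio of miR-144-3p to miR-144-5p was 12.5, 13.6, 13.6 and 21.2 in controls and 29.7, 37.1, 35.02 and 27.2 in irradiated lungs, so that the arm ratio itself separated the groups. This ratio was looked at after the values were seen and was not tested. Of the 7 erythroid miRNAs tested 4 stood above 0, median 0.07. Only miR-144-3p separated the groups, where 4.84% of all rows had every irradiated library above every control. The list holds miR-486b-5p beside miR-486a-5p, whose counts are the same, and with the pair as 1 measurement 4 of 6 stood above 0, median 0.24.

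Members of the seed family AUUGCAC stood on both sides of 0. miR-32-5p, from an intron of Tmem245 (chromosome 4, 56895229 to 56895298, minus strand), had 501.2, 760.7, 588.0 and 815.8 in controls against 1074, 1379, 1015 and 1118 CPM in irradiated lungs. All irradiated libraries were higher (0.78 ± 0.20, edgeR adjusted p = 0.119). miR-25-3p had 526.4, 745.6, 762.5 and 1401 in controls against 512.7, 537.0, 493.1 and 423.3 CPM in irradiated lungs (log2 -0.81 ± 0.28, edgeR adjusted p = 0.269). These groups overlapped, since control library 1 lay among the irradiated libraries. The other relatives were also below 0, with miR-92a-3p at -0.30 ± 0.11, miR-363-3p at -0.49 ± 0.28 and miR-92b-3p at -0.09 ± 0.13. As a percentage of miR-25-3p, miR-32-5p stood at 95.2, 102.0, 77.1 and 58.2 in controls and 209.5, 256.8, 205.9 and 264.1 in irradiated lungs. These are the members with the highest and the lowest log2 fold change of the family, a choice that favours a gap between the groups. The ratio was not tested. The 5 miRNAs together summed to 11922 ± 554 in controls against 10382 ± 630 CPM in irradiated lungs (SD, n = 4 each).

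The proliferation clusters, miR-17-92 and its relatives miR-106b-25 and miR-106a-363, are miRNA genes active in dividing cells. All 11 miRNAs listed for them were tested and stood below 0, with a median of -0.42, and with upper-quartile scaling 1 of the 11 stood above 0. Without control library 4 the median was -0.21, miR-17-5p was at -0.06 and 2 of the 11 stood above 0, and without control library 2 the median was -0.27, miR-106b-5p was at 0.16 and 2 stood above 0. None passed, 3 had an unadjusted p under 0.05 (miR-25-3p, miR-92a-3p and miR-20b-5p), and in none were the groups apart. Over all rows, 4.48% were lower at that p, and in 2.33% all irradiated libraries lay below all controls. miR-20b-5p had 30.7, 50.5, 49.5 and 44.9 in controls against 27.02, 16.2, 23.2 and 36.4 CPM in irradiated lungs (log2 -0.77 ± 0.27). The list summed to 11940 to 14276 in controls against 10540 to 11424 CPM in irradiated lungs, so the sums did not overlap. By hairpin neighbourhood, 0 of 11 miRNAs tested from Mir17 to Mir92-1, 0 of 5 from Mir25 to Mir106b and 0 of 4 from Mir363 to Mir20b stood above 0. miR-92a-3p and miR-19b-3p belong to more than 1 of these blocks.

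miRNAs of lymphocytes stood lower in irradiated lungs. miR-150-3p, the minor arm of the miRNA of mature lymphocytes, had 15.6, 12.4, 14.1 and 13.9 in controls against 8.25, 4.62, 7.43 and 8.19 CPM in irradiated lungs. The groups were apart (-0.97 ± 0.24, edgeR adjusted p = 0.119). The abundant arm, miR-150-5p, had 22020, 21852, 25966 and 14561 in controls against 15282, 10589, 12409 and 16224 CPM in irradiated lungs (log2 -0.63 ± 0.18, edgeR adjusted p = 0.193). Control library 4 lay among the irradiated libraries, and without it the edgeR adjusted p was 0.0317. Leaving out any other single library gave no call of miR-150-5p. It was called in 2 of 20 alternative fits by edgeR, DESeq2 or limma, with adjusted p from 0.00964 to 0.432. miR-342-3p, from an intron of Evl (chromosome 12, 108658620 to 108658718, plus strand), had 1311, 1378, 1375 and 1584 in controls against 972.5, 792.1, 1051 and 979.7 CPM in irradiated lungs (log2 -0.57 ± 0.15, edgeR adjusted p = 0.129). Its groups did not overlap. All 6 lymphoid miRNAs tested stood below 0, median -0.46, with 3 at an unadjusted p under 0.05 and none past the test. Over all rows, 4.48% were lower at that p. By contrast 2 of 4 myeloid and pan-leukocyte miRNAs stood above 0, median 0.03, with miR-223-3p of granulocytes at -0.28 ± 0.30 and miR-142a-3p of all leukocytes at 0.33 ± 0.30.

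The lowest p in the downward direction was that of miR-466h-3p, a rodent-specific miRNA of a large repeated family, at 17.1, 18.6, 15.0 and 10.5 in controls against 7.11, 5.48, 5.95 and 7.43 CPM in irradiated lungs. The groups were apart (-1.23 ± 0.25, edgeR adjusted p = 0.0825). miR-669d-5p of the same group of families had 13.0, 16.8, 21.3 and 22.1 CPM against 10.8, 12.4, 11.3 and 8.45 CPM (-0.77 ± 0.24). miR-466m-5p and miR-669m-5p have identical counts in all 8 libraries and are 1 measurement (-0.70 ± 0.30), and miR-466g was at -0.60 ± 0.28. Of 36 tested miRNAs of the miR-297, miR-466, miR-467 and miR-669 families, a group drawn up after the values were seen, 22 stood above 0 with a median of 0.02. Rows with identical counts are counted apart there, and the 36 rows are 29 distinct measurements, 17 of them above 0. Without 1 library the rows above 0 numbered 14 (without irradiated library 2) to 28 (without control library 3). In 5 rows, those named here, all irradiated libraries lay below all controls, where 2.33% of all rows did. These families share near-identical sequences, and single values are uncertain.

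Several other miRNAs had all irradiated libraries below all controls. miR-15b-5p, a cell cycle-restraining miRNA from an intron of Smc4 (chromosome 3, 69009772 to 69009835, plus strand), had 1727, 1903, 2039 and 2611 in controls against 1486, 1520, 1706 and 1188 CPM in irradiated lungs (log2 -0.49 ± 0.17, edgeR adjusted p = 0.269). Its highest irradiated library lay just under its lowest control. miR-423-3p was at 4702 to 5861 in controls against 4161 to 4515 CPM in irradiated lungs (log2 -0.25 ± 0.10), and miR-574-3p at 1127 to 1786 CPM and 847.4 to 1094 CPM (-0.50 ± 0.19). miR-8114 (-0.65 ± 0.22) and miR-8112 (-0.46 ± 0.18) were also apart. Their hairpins overlap exons of the protein-coding genes Glul and Krcc1 on the same strand, and the origin of their reads was not tested. All 7 miRNAs of the miR-15 and miR-16 family stood below 0, median -0.09. With upper-quartile scaling 1 of them, miR-15a-5p, stood above 0. Without 1 library 0 to 2 of the 7 did, with medians from -0.20 to -0.08.

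The miR-200 family holds epithelial cells in their state. Its member miR-141-3p had 1711, 2892, 2282 and 2322 in controls against 4631, 4387, 2949 and 3091 CPM in irradiated lungs. The groups were apart, with irradiated libraries 3 and 4 close above the highest control (0.71 ± 0.20, edgeR adjusted p = 0.17). miR-200a-3p, with the same seed, overlapped (0.03 ± 0.14). All 6 epithelial miRNAs tested stood above 0, median 0.16, and none passed. Without control library 4, 4 of the 6 stood above 0, median 0.09.

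Lists of inflammation and fibrosis showed no common direction. Of 10 inflammatory miRNAs 4 stood above 0, median -0.06, and none had an unadjusted p under 0.05. miR-21a-5p, which is raised in many injured tissues, was at 18122 to 22244 in controls against 21244 to 22097 CPM in irradiated lungs (log2 0.10 ± 0.08), and miR-146a-5p, a brake on NF-κB signalling, at -0.11 ± 0.11. By level miR-21a-5p ranked 17, among the most abundant miRNAs, whose changes may be understated. Of 8 miRNAs that restrain fibrosis 4 stood above 0, median 0.03. Without 1 library 2 to 7 of the 8 did, with medians from -0.09 to 0.14, and with upper-quartile scaling 6 did. miR-29b-3p, which represses collagens, had 1625, 2402, 2094 and 3225 in controls against 3707, 4579, 3625 and 2806 CPM in irradiated lungs (log2 0.65 ± 0.22, edgeR adjusted p = 0.269). Only irradiated library 4 lay among its controls. Its relative miR-29a-3p was at -0.02 ± 0.19 and turned positive with upper-quartile scaling. Of 6 fibroblast miRNAs 3 stood above 0, median -0.13, with miR-199a-3p at -0.42 ± 0.15 and miR-214-3p at 0.79 ± 0.42. miR-199a-3p and miR-199b-3p have identical counts in all 8 libraries, and with both taken as 1 measurement 3 of 5 stood above 0, median 0.11.

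The remaining lists, which mark other cell types or families, had medians between -0.25 and 0.15. Of 2 endothelial miRNAs 1 stood above 0, with miR-126a-5p at 0.34 ± 0.16 and miR-126a-3p at -0.04 ± 0.08. Of 4 smooth muscle miRNAs 2 stood above 0 (median 0.06), with miR-143-3p at -0.03 ± 0.08 and miR-145a-5p at -0.11 ± 0.22. Of 2 miRNAs of stratified epithelium, miR-205-5p was at 0.39 ± 0.24 and miR-203-3p at -0.14 ± 0.31. Neural and neuroendocrine miRNAs stood above 0 in 4 of 8 (median -0.07), with miR-124-3p at -0.98 ± 1.16 and miR-7b-5p at 1.96 ± 0.72. The latter was at 669.9 CPM in irradiated library 4 and at 102.4 to 123.7 CPM in the other 3. Both arms of hypoxia-induced miR-210 stood below 0 (-0.13 ± 0.30 for 3p and -0.37 ± 0.33 for 5p). In the let-7 family 2 of 9 stood above 0 (median -0.03), and with upper-quartile scaling all 9 did, with let-7a-5p at -0.03 ± 0.09 and let-7b-5p at -0.04 ± 0.09. In the miR-30 family 2 of 7 stood above 0 (median -0.05), with miR-30a-5p at 0.25 ± 0.19 and miR-30b-5p at -0.05 ± 0.10. None of these miRNAs passed the test.

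**Figure D4:**
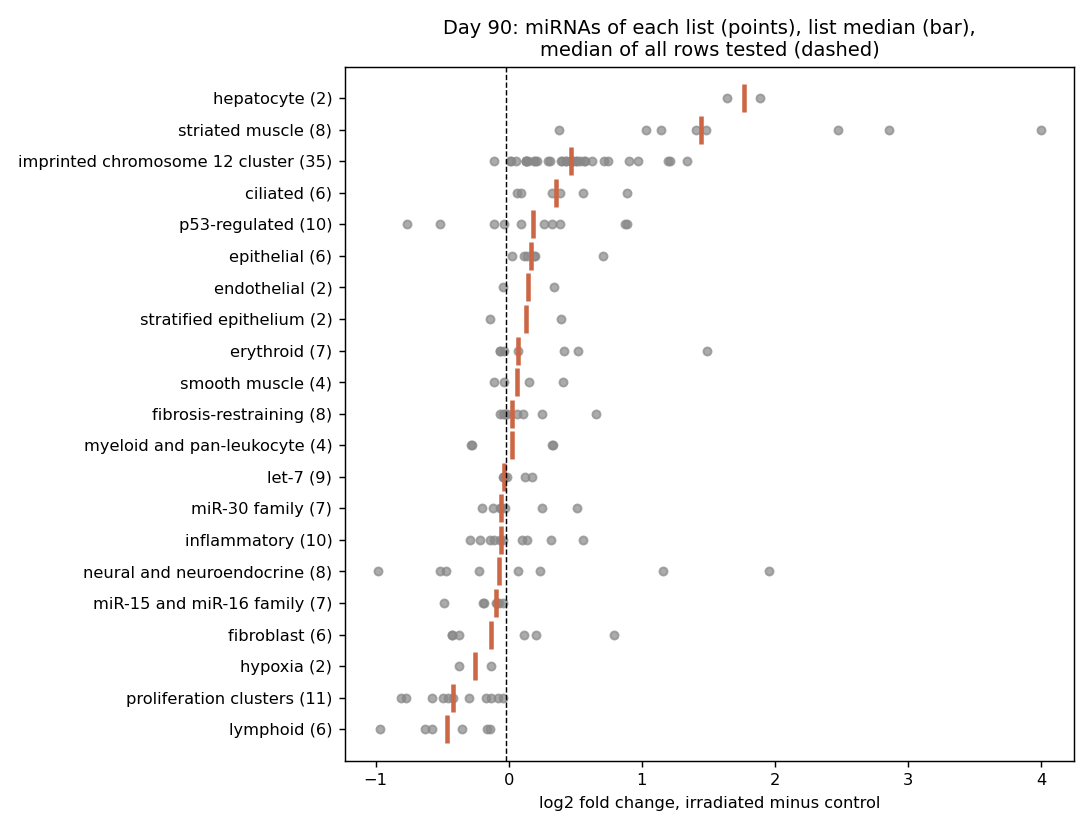
Log2 fold change (irradiated minus control) of each tested miRNA by list, with the number tested in brackets, the list median as a bar and the median of all rows as a dashed line. The hepatocyte (1.77), striated muscle (1.44) and imprinted cluster (0.47) medians lie farthest to the right, and the lymphoid (-0.46) and proliferation cluster (-0.42) medians farthest to the left.

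Both arms of 139 hairpins were tested, and their changes had the same sign in 88 and opposite signs in 51. Of the 23 hairpins with an arm at an unadjusted p under 0.05, 19 had both arms on the same side. Arms of 1 hairpin come from 1 transcript and are not independent. Rows with identical counts, such as miR-199a-3p and miR-199b-3p, were counted apart among these hairpins and among the seeds below. Among the 427 miRNAs with a sequence there were 349 seeds, and 47 of these had 2 or more tested members. All members stood above 0 in 12 of the 47, all stood below in 20, and 15 held members on both sides.

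The same comparison was fitted at day 14, 90 and 180 in one model of all 24 libraries, on the rows shared by the 3 tables, to ask whether the effect at day 90 differed from that at the other days. Neither the difference from day 14 nor that from day 180 passed for any of 624 rows (0% in both), while 28 and 91 rows had an unadjusted p under 0.05. By chance alone a share of about 0.05 of rows would reach that p, and the count for day 14 was no higher than that. DESeq2 called 1 and 2. The log2 fold changes of miR-133b-3p were -0.09, 2.47 and 0.70 at day 14, 90 and 180, and those of miR-122-3p were 1.07, 1.64 and 0.12. In miR-136-5p they were -0.30, 1.34 and 0.23, with a difference from day 14 of 1.64 ± 0.48 (edgeR adjusted p = 0.394). For miR-34b-5p they were -0.25, 0.89 and -0.10, and the difference from day 14 was 1.14 ± 0.36 (edgeR adjusted p = 0.394).

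miR-32-5p and miR-144-3p had the day 180 differences with the lowest adjusted p. miR-32-5p was at 0.15, 0.78 and -0.41, a difference from day 180 of 1.19 ± 0.27, and miR-144-3p at 0.70, 1.49 and -0.85, a difference of 2.34 ± 0.58 (edgeR adjusted p = 0.12 for both). Levels of miR-144-3p were 1092 ± 507 and 3074 ± 1528 CPM in control and irradiated lung at day 90, and 2262 ± 607 and 1264 ± 611 CPM at day 180 (SD, n = 4 each, scaled within each day). miR-376a-3p had a similar size at day 90 and 180, 1.19 and 1.09, and was at 0.17 at day 14. miR-342-3p was at -0.41, -0.57 and 0.35, and miR-15b-5p was below 0 at all 3 days (-0.28, -0.49 and -0.64). miR-208a-3p was at 2.58, 4.03 and -1.41 with SEs of 1.48, 1.52 and 1.39, and its difference from day 180 was 5.44 ± 2.04 (edgeR adjusted p = 0.272). Among annotated rows with at least 80 counts summed over a day's libraries, 9 pairs had identical counts at both day 14 and day 90, and the 7 of these pairs with both rows in the day 180 table all differed there. Whether reads of near-identical miRNAs were assigned differently at day 180 was not tested.

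**Figure D5:**
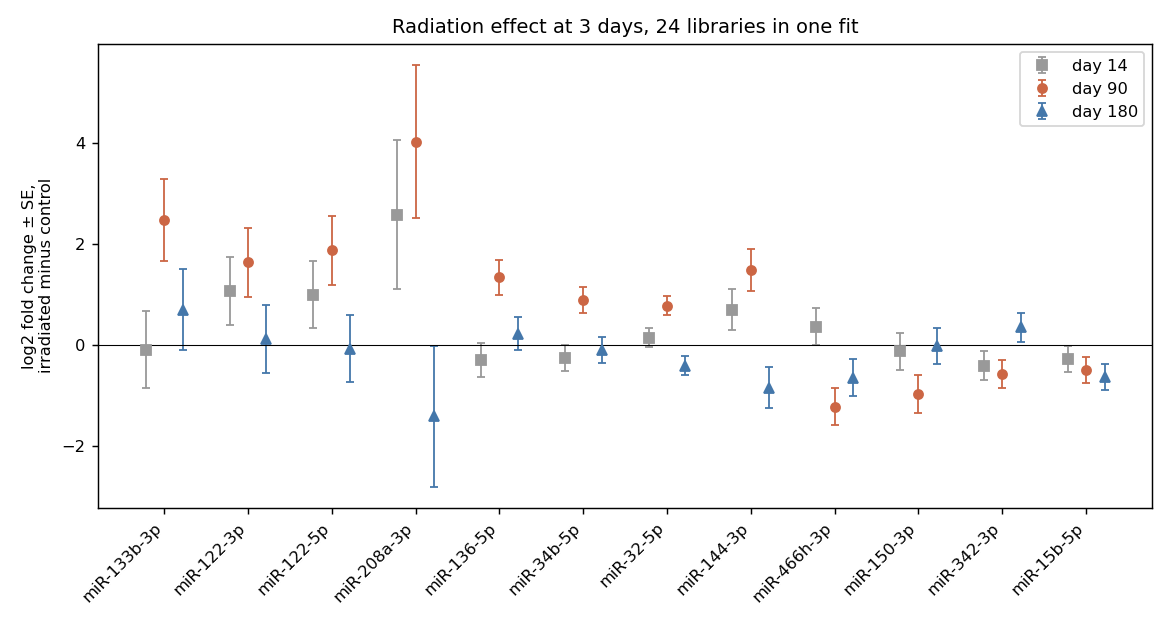
Log2 fold change ± SE (irradiated minus control) of 12 miRNAs at day 14, 90 and 180 from one fit of 24 libraries. miR-144-3p and miR-32-5p lie above 0 at day 90 (1.49 and 0.78) and below 0 at day 180 (-0.85 and -0.41), while miR-15b-5p lies below 0 at each day.

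The rows of the table held 23.8% ± 0.39 of the authors' RPM total in controls and 24.1% ± 0.53 in irradiated lungs (SD, n = 4 each). The exact two-sided permutation p was 0.429, and the smallest possible is 0.0286. What else the total covers was not given in the sources used here, and the share differed by less than the spread between libraries.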

How the data were processed

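Small RNA of mouse lung was sequenced in 8 libraries at day 90 (24 in all). The authors deposited columns headed as read counts, and RPM values, for each mature miRNA. Whether these counts are unprocessed was not tested. The authors' RPM total, 14260294 to 15328844, is about 4 times the summed counts. What else this total covers was not given in the sources used here. The submitters' processing notes name Bowtie2 (no version) and the build GRCm38.p6. The authors' deposited averages, of RPM and of estimated counts, were not used.

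Counts were tested with edgeR 4.0.16 (R 4.3.3; filterByExpr, TMM, legacy quasi-likelihood fit, Benjamini-Hochberg threshold 0.05) over 558 rows, 39 of them predicted miRNAs. CPM values are counts scaled by TMM-adjusted library size. Each SE of an edgeR log2 fold change is its absolute value divided by the square root of the test's F statistic. The spread behind that statistic is moderated across rows. DESeq2 1.42.0, limma 3.58.1, other scalings and filters and leaving out each library were alternatives, and scripts were tested on simulated data. Named miRNAs passed the test, had the 12 lowest p values in each direction among those whose groups did not overlap, led a list (first 2 tested), were the other arm of these, or are miR-208a-3p; others illustrate a list or family and were chosen after their values were seen. Members and lists were chosen with earlier results of these data known. Hosts of hairpins are from GENCODE M21. Counting intervals do not apply, since PCR reads are not independent molecules.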

Additional observations from a re-analysis of the deposited data

Results flagged for a closer look

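Among the control and irradiated groups of the 64 named miRNAs, 16 groups had 1 library far from the other 3, past Dixon's critical value for 4 samples, where chance gives about 1 group in 20. Irradiated library 4 was the distant one for 5 miRNAs. It held 21244 CPM of miR-34a-5p (14317 to 14699 in the other 3), 669.9 CPM of miR-7b-5p (102.4 to 123.7), 60.9 CPM of miR-124-3p (5.40 to 7.43), 276.0 CPM of miR-203-3p (750.2 to 803.0) and 538.5 CPM of miR-379-5p (526.0 to 527.9). Control library 4 held 445.9 CPM of miR-122-5p (153.9 to 183.5), 100.6 CPM of miR-376a-3p (47.4 to 53.5) and 21253 CPM of let-7b-5p (26096 to 26333). Control library 3 held 10429 CPM of miR-15a-5p (8572 to 8673), 16723 CPM of miR-30b-5p (14470 to 14681), 15.0 CPM of miR-466g (9.16 to 10.1) and 10.5 CPM of miR-466m-5p and miR-669m-5p, which are 1 measurement (5.32 to 5.50). Control library 1 held 7047 CPM of miR-34b-3p (4071 to 4471), control library 2 held 878.3 CPM of miR-127-3p (1077 to 1086) and irradiated library 2 held 30.3 CPM of miR-210-3p (20.8 to 22.3). Whether these are technical was not tested.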

How the results depend on the processing

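The 2 calls at day 90 depended on the processing. Upper-quartile scaling gave 5, no filter 18, a mean of at least 10 CPM 0, DESeq2 18, voom with library weights 6, the newer edgeR fit 5 and all 24 libraries in one fit 0. Leaving out 1 library gave 0 to 7. With the replicate number as a block there were 0 calls. The labels do not say whether equal numbers pair libraries. Correlations of same-numbered deviations were -0.20, 0.37, 0.18 and 0.04, and 2 of 4 controls correlated best with their own number. So few libraries cannot decide whether the numbers pair them. miR-133b-3p was called in 13 of the 19 alternatives that tested it and miR-122-3p in 11 of 20. The adjusted p ranged from 8.22e-06 to 0.252 and from 2.06e-06 to 0.594. The difference from day 14 gave 1 call with DESeq2. That from day 180 gave 2 with DESeq2 and 0 to 8 without 1 library. Single miRNAs near 0 changed sign. With upper-quartile scaling log2 fold changes were 0.0177 for miR-29a-3p, 0.00928 for miR-143-3p, 0.00787 for miR-451a, 0.0082 for let-7a-5p, 0.00198 for let-7b-5p and 0.00922 for miR-15a-5p, and with library weights 0.0031 for miR-29a-3p. Leaving out 1 library gave -0.18 to 0.11 for miR-29a-3p, -0.072 to 0.12 for miR-200a-3p, -0.29 to 0.084 for miR-145a-5p, -0.27 to 0.091 for miR-203-3p, -2.66 to 0.67 for miR-124-3p, -0.11 to 0.018 for miR-15a-5p, -0.33 to 0.057 for miR-210-3p, -0.046 to 0.10 for miR-127-3p and -0.020 to 0.29 for miR-34b-3p. The difference from day 14 ranged from -0.092 to 1.94 for miR-122-3p, and that from day 180 from -0.051 to 0.35 for miR-669d-5p and from -0.11 to 0.25 for miR-15b-5p. List counts without each library, and with identical rows taken once, were added after the data were seen. Of the imprinted cluster 29 to 35 stood above 0 without 1 library, of striated muscle 8 of 8 and of the lymphoid list 0 of 6 in every such fit. Causes were not tested.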

Other observations

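A further 7 annotated miRNAs, which belong to none of the lists above, separated the groups, and none passed the test. They were named after their values were seen. The log2 fold changes were 0.87 for miR-3071-3p, 0.85 for miR-24-1-5p, 0.67 for miR-7689-3p, 0.65 for miR-188-5p, 0.34 for miR-153-3p and -0.37 for miR-5114. The remaining one, miR-96-5p, of a cluster active in sensory cells, was at 0.63, and of 3 tested miRNAs of the miR-96, miR-182 and miR-183 cluster 2 stood above 0 (median 0.09).

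miR-211-5p had 119.2, 107.5, 77.7 and 57.8 CPM in controls and 25.0, 26.5, 29.4 and 73.2 CPM in irradiated lungs (log2 fold change -1.23 ± 0.39, edgeR adjusted p = 0.235). Irradiated library 4 alone lay among the controls, and without it the log2 fold change was -1.77 (edgeR adjusted p = 0.0396). It was called in 3 of 20 alternatives. miR-204-5p, which has the same seed, stood on the other side of 0 (0.47 ± 0.41). The 2 miRNAs summed to 229.8 ± 101.5 in controls against 231.7 ± 102.5 CPM in irradiated lungs (SD, n = 4 each). Whether reads were split between them was not tested, and both values are uncertain. miR-211 lies in an intron of a melanocyte channel gene.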
